A study of Mus musculus with 8 samples.

Results

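Pleiotrophin, midkine and their receptors were examined as 5 genes of the 52636 in the count table, namely the ligands Ptn and Mdk and the receptors Ptprz1, Ptprs and Lrp1. The 5 genes were chosen by name from known ligand and receptor roles, and each was found in the table by its Ensembl identifier. All 5 had reads in each of the 8 libraries and were among the 14598 genes tested. RNA came from mesenchymal stem/progenitor cells (MSPCs) of mouse bone marrow, sorted as PDGFRα+ SCF-GFP+ cells that lacked CD45, Ter119, CD31 and CD144. Each library thus reports mainly what the niche stroma transcribes, beside some blood-cell transcripts. Libraries of 4 control mice (CTR, Flk2-cre+ Cxcr4fl/+) were compared with those of 4 conditional knockout mice (cKO, Flk2-cre+ Cxcr4fl/fl), and the question was whether niche cells change when multipotent progenitors and their progeny lack CXCR4. All 8 mice had the C57BL/6 background, carried the Flk2-cre transgene and were sorted by a GFP reporter for SCF (the Kitl gene), and their labelled age was 6 weeks, below the range that the methods give for all mice. The only Kitl reporter strain that the methods list is Kitl-GFP/+. The paper reports that this allele, crossed into cKO mice, lowered membrane-bound SCF on niche cells to the wild-type level. It also returned hematopoietic stem cell numbers there to a physiological level. CTR mice already carry 1 floxed Cxcr4 allele, the Cre transgene lies on the Y chromosome, and Flk2-cre acts in hematopoietic progenitors and not in the sorted stroma.

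Pleiotrophin and midkine form a small family of secreted, heparin-binding growth factors, and pleiotrophin made by bone marrow endothelial and CXCL12-rich stromal cells is known for supporting hematopoietic stem cell (HSC) maintenance and regeneration. The ligands bind chondroitin sulfate and heparan sulfate chains on their receptors. PTPRZ1 is a receptor tyrosine phosphatase whose activity is blocked when pleiotrophin binds it, PTPRS is a related phosphatase that reads proteoglycan chains and restrains HSCs when it is present on them, and LRP1 is a large endocytic receptor of the LDL receptor family that takes up midkine and many other ligands.

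Total counts per library lay between 31047344 and 38216877. Between cKO and CTR, the quasi-likelihood test of edgeR, adjusted by Benjamini-Hochberg over all genes, called 0 of 14598 genes (0%), and 646 had an unadjusted p under 0.05. limma-voom called 0 genes and DESeq2 called 23 with its Wald test and 22 with its likelihood ratio test. All 9 MSPC markers, among them Lepr, Cxcl12 and Pdgfra, had counts in every library, and their summed level was 55014 to 67108 CPM (read counts scaled to library size by TMM) in CTR and 56353 to 67973 CPM in cKO. Of 7 endothelial markers, Tek was at 0 in every library, Cdh5 and Pecam1 were at 0 in some, and the sum was 5.42 to 9.71 CPM over the 8 libraries. Reads of Cxcr4 numbered 4 to 19 in CTR libraries and 0 to 12 in those of cKO, which does not check the genotype, since the deletion is not made in these cells. The sample titles carry a bracketed number, either 26 to 32 or 67 to 86, with 2 libraries of each genotype in each range. Its meaning is not given, and the methods correct for a batch that they do not name, so values within each range are given beside the pooled ones. The methods describe a DESeq2 likelihood ratio test with that correction. The nearest fit here, the same test with the title number range as a term, called 47 genes.

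The 5 genes differed widely in level. Per kilobase of exon, Mdk was the highest at 119 ± 23.5 CPM per kilobase (SD, n = 8), followed by Lrp1 at 71.8 ± 5.64, Ptprs at 10.7 ± 0.986, Ptn at 3.28 ± 1.70 and Ptprz1 at 0.418 ± 0.259. This order held in each of the 8 libraries, and it also held in each when the longest transcript stood in for all exons, which gave 23.5 for Ptprs and 0.739 for Ptprz1. The lowest Mdk library, at 86.9 CPM per kilobase, lay above the highest Lrp1 library, at 80.3, and the lowest Ptprs library, at 8.98, lay above the highest Ptn library, at 5.79. Neighbours at the bottom of the order did overlap in range, because Ptn was 0.750 CPM per kilobase in cKO replicate 3 while Ptprz1 was 0.939 in CTR replicate 3. Among the 52403 genes with an exon length, Mdk ranked 299 and Lrp1 ranked 548 by this measure, Ptprs ranked 4172, Ptn ranked 8479 and Ptprz1 ranked 14080. In bulk RNA, fewer cells that transcribe a gene and less RNA in each cell cannot be told apart, for these 5 genes and for the pathway genes alike.

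**Figure D1:**
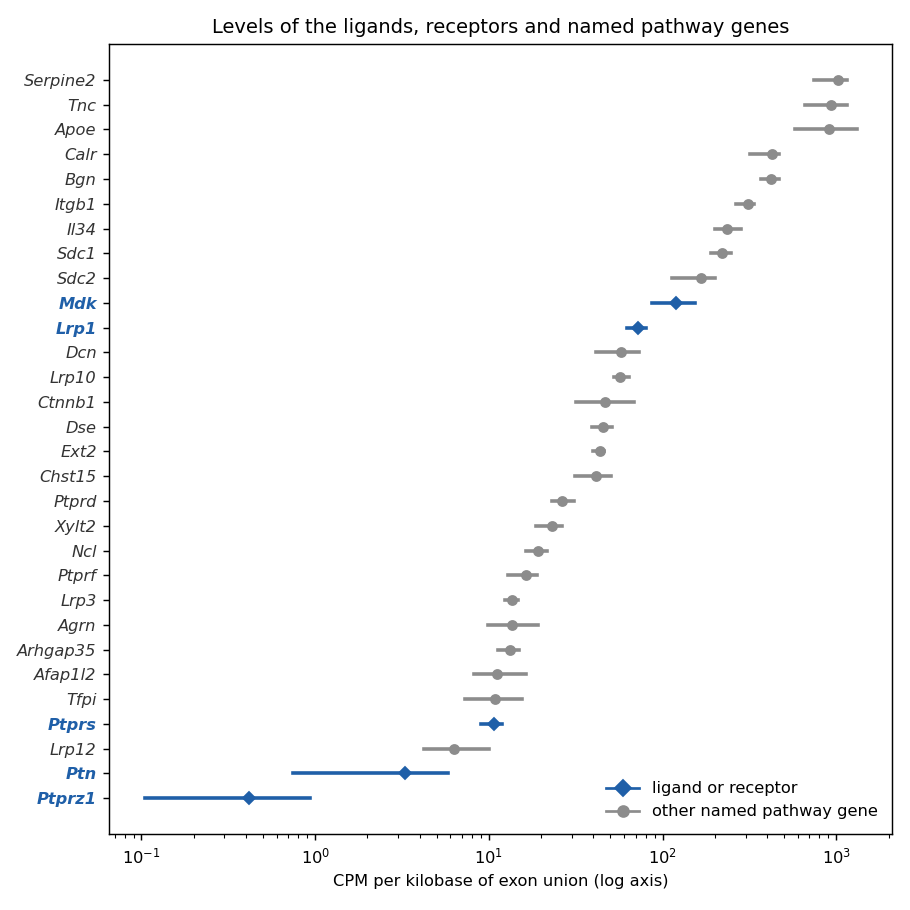
Mean level (symbols) and lowest to highest library (lines) over the 8 libraries, in CPM per kilobase of exon union on a log axis, for the 5 ligands and receptors (diamonds) and the other named pathway genes (circles). Mdk, at 119, and Lrp1, at 71.8, stand well above Ptprs, at 10.7, while Ptn and Ptprz1 are the lowest genes drawn and have the longest lines.

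Ptn, which encodes pleiotrophin, lies on chromosome 6 (GRCm38 36714929 to 36810220, minus strand). In CTR the 4 libraries held 10.3, 15.3, 16.5 and 12.3 CPM for replicates 1 to 4. In cKO the libraries held 19.9, 6.22, 2.57 and 7.14 CPM. Of the 4 cKO libraries, 3 lay below the lowest CTR library and 1, replicate 1, lay above the highest, so the groups overlapped. These values rest on 84 to 652 reads per library.

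The mean Ptn level of the 4 CTR libraries was 13.6 ± 2.81 CPM and that of the 4 cKO libraries was 8.95 ± 7.55 CPM (SD, n = 4). The log2 fold change of cKO over CTR was -0.60 ± 0.51 (SE), with a 95% interval of -1.73 to 0.53, an unadjusted p of 0.263 and an adjusted p of 0.999 by edgeR's quasi-likelihood test. A larger change in size was found for 7.84% of all genes tested. The difference of mean log2 CPM, which weighs each library equally, was -0.94 with an exact permutation p of 0.171 (two-sided, 70 assignments, smallest possible p 0.0286), and it was -1.03 within title numbers 26 to 32 and -0.85 within 67 to 86. Without cKO replicate 1 the log2 fold change was -1.35 (unadjusted p 0.00528, adjusted p 0.9999), and without cKO replicate 3 it was -0.29.

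Marker lists of other cell types were summed in the same libraries. The hematopoietic list had 14 genes, of which 6 had counts in every library and Cd3e was at 0 in all. It summed to 69.4 to 210.6 CPM in CTR and 154.3 to 257.9 CPM in cKO. Its highest value was in cKO replicate 3, where Ptn was lowest. In cKO replicate 1, where Ptn was highest, the hematopoietic sum was 182.7 CPM. The lowest hematopoietic sum was in CTR replicate 4, where Ptn was 12.3 CPM. The osteolineage list of 7 genes, all with counts in every library, summed to 10308 to 13402 CPM in CTR and 10323 to 15799 CPM in cKO. Most of this sum was 1 gene, Ibsp, at 7734 to 13673 CPM over the 8 libraries. In cKO the sum was lowest in replicate 1, where Ptn was highest. The part of either list in the spread of Ptn was not tested.

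Mdk, which encodes midkine, lies on chromosome 2 (GRCm38 91929805 to 91932297, minus strand). In CTR its libraries held 156.7, 115.0, 202.3 and 144.9 CPM, and in cKO they held 199.7, 128.7, 167.0 and 145.8 CPM. Every cKO value lay within the CTR range. The CTR mean was 154.7 ± 36.2 CPM and the cKO mean 160.3 ± 30.6 CPM (SD, n = 4 each), and the log2 fold change was 0.05 ± 0.18 (SE), with a 95% interval of -0.35 to 0.46 and an adjusted p of 0.999 by edgeR's quasi-likelihood test.

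Mdk was also compared between the title number ranges, a comparison made after its values were seen. The 4 libraries numbered 67 to 86 held 156.7 to 202.3 CPM and the 4 numbered 26 to 32 held 115.0 to 145.8 CPM, so the ranges did not overlap. Such a separation, with the higher level in 67 to 86, was found for 3.43% of all genes tested. The log2 fold change of 67 to 86 over 26 to 32 was 0.44 ± 0.12 (SE). Its unadjusted p was 0.00539 and its adjusted p 0.240, by edgeR's quasi-likelihood test with genotype as a term. The exact permutation p was 0.0286, the smallest possible. Full separation of the ranges fixes it at that value, so it only repeats that the ranges did not overlap. In this direction 0% of genes passed the adjusted threshold and 5.1% had an unadjusted p under 0.05, by edgeR, while limma-voom also called 0 in this direction. The difference in mean log2 CPM was 0.46 within CTR and 0.41 within cKO. For Ptn, Ptprz1, Ptprs and Lrp1 the libraries of the title ranges overlapped.

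**Figure D2:**
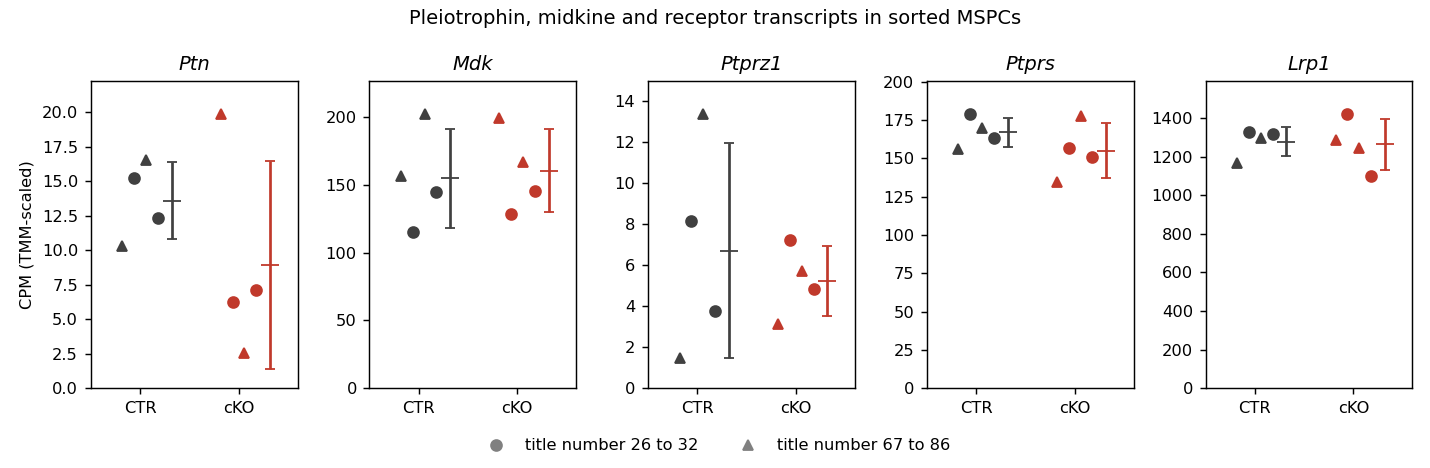
CPM in each library for the 5 genes, with CTR in grey and cKO in red, circles for title numbers 26 to 32, triangles for 67 to 86, and bars for the mean ± SD of 4 libraries beside the points. Ptn is below the CTR libraries in 3 cKO libraries and highest in the other, and all triangles of Mdk, from 156.7 CPM, lie above its circles, up to 145.8 CPM.

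Midkine was also set over pleiotrophin in each library, with both in CPM per kilobase of exon union. This ratio was 39.4, 19.6, 31.8 and 30.5 in CTR and 26.0, 53.7, 168.2 and 53.0 in cKO. The median ratio was 31.2 in CTR and 53.3 in cKO, with cKO replicate 1 inside the CTR range and the other 3 cKO libraries above it (exact permutation p = 0.114, two-sided, on log2 ratios).

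Ptprz1, the phosphatase receptor of pleiotrophin, lies on chromosome 6 (GRCm38 22875502 to 23052916, plus strand). CTR libraries held 1.49, 8.15, 13.4 and 3.78 CPM and cKO libraries held 3.11, 7.23, 5.70 and 4.85 CPM, from 46 to 432 reads. All these values lay below the lowest hematopoietic marker sum, 69.4 CPM, and which cells the reads came from was not tested. The spread was an 8.97-fold range in CTR and a 2.33-fold range in cKO, and all cKO values lay within the CTR range. The means were 6.70 ± 5.24 CPM and 5.22 ± 1.72 CPM (SD, n = 4 each). The log2 fold change was -0.36 ± 0.57 (SE), with a 95% interval of -1.63 to 0.92 and an adjusted p of 0.999 by edgeR's quasi-likelihood test, while the difference of mean log2 CPM was -0.0019 (exact permutation p = 1). Without CTR replicate 3, the highest library, the log2 fold change was 0.22, and without CTR replicate 1, the lowest, it was -0.69.

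Ptprs, the receptor phosphatase known for holding HSCs in check, lies on chromosome 17 (GRCm38 56412426 to 56476483, minus strand). It held 156.3, 179.0, 169.6 and 163.1 CPM in CTR and 134.6, 156.6, 178.0 and 151.2 CPM in cKO. Below the lowest CTR library lay 2 cKO libraries, replicates 1 and 4, and none lay above the highest. The means were 167.0 ± 9.69 CPM and 155.1 ± 17.9 CPM (SD, n = 4 each), the log2 fold change was -0.10 ± 0.10 (SE), its 95% interval was -0.34 to 0.13, and its adjusted p was 0.999 by edgeR's quasi-likelihood test. Values were -0.15 within title numbers 26 to 32 and -0.07 within 67 to 86. Leaving out cKO replicate 3 gave a log2 fold change of -0.18, and leaving out cKO replicate 1 gave -0.04.

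Lrp1, the endocytic receptor of midkine, lies on chromosome 10 (GRCm38 127538161 to 127621148, minus strand) and was the most abundant of the 5 genes by reads, with rank 73 of all genes by CPM. It held 1169, 1329, 1299 and 1321 CPM in CTR and 1288, 1422, 1248 and 1100.3 CPM in cKO. The cKO libraries reached both below and above the CTR range, with 1 on each side. The means were 1279 ± 74.8 CPM and 1265 ± 133 CPM (SD, n = 4 each), and the log2 fold change was -0.01 ± 0.10 (SE), with a 95% interval of -0.25 to 0.22 and an adjusted p of 0.999 by edgeR's quasi-likelihood test.

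**Figure D3:**
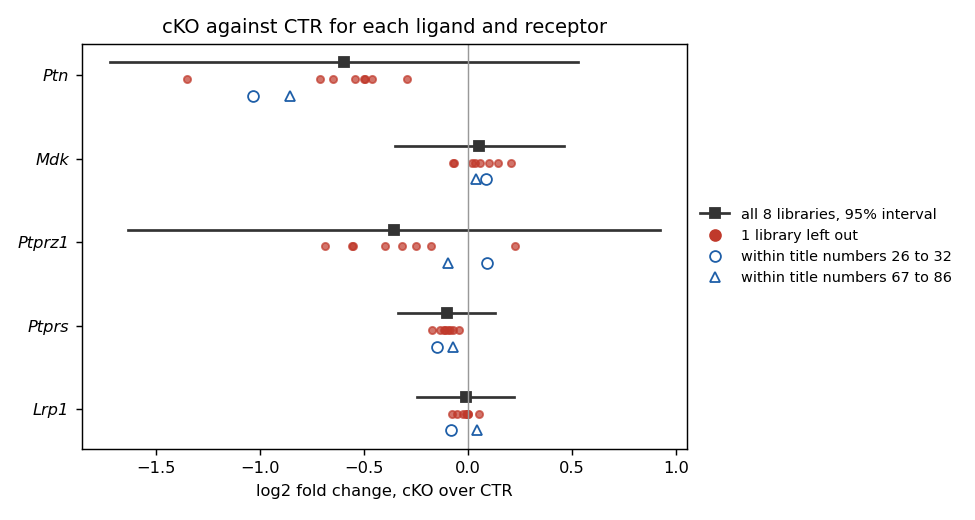
Log2 fold change of cKO over CTR for the 5 genes from all 8 libraries with its 95% interval (squares), with 1 library left out (red points), and as the difference of mean log2 CPM within each title number range (open blue symbols). The intervals of Lrp1, from -0.25 to 0.22, and Ptprs, from -0.34 to 0.13, are narrow, those of Ptn and Ptprz1 are wide, and all 5 contain 0.

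None of the 5 genes passed the adjusted threshold, beside 0% of all genes, and none had an unadjusted p under 0.05. The SD of log2 CPM over the 8 libraries was 0.95 for Ptn, which was more than in 96.9% of the genes within 2-fold of its level, and 0.95 for Ptprz1, more than in 91.7% of its like. Mdk varied by 0.28, more than 83.9% of genes of its level. Ptprs, at 0.14, varied more than 30.4%, and Lrp1, at 0.12, more than 24.2%. Ptn and Ptprz1 did not vary together, with Pearson's r of -0.02 over the 8 libraries, and among the 10 pairs the highest r was 0.51, for Ptprz1 and Ptprs. These are descriptions over 8 libraries that share genotype groups and title ranges.

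The genes whose log2 CPM was most like Ptn over the 8 libraries, among 9405 genes of at least 10 CPM on average, were Tmem185b (r = 0.97), Ppif, a mitochondrial cyclophilin (r = 0.95), and Vkorc1l1, a vitamin K epoxide reductase (r = 0.95). All 3 were lowest in cKO replicate 3, as Ptn was, and Tmem185b and Ppif were highest in cKO replicate 1, as Ptn was. Without cKO replicates 2 and 3, r was 0.96 for Tmem185b and Ppif and 0.77 for Vkorc1l1. Most like Mdk were Anxa6, a calcium-dependent membrane-binding protein (r = 0.97), Lpl, lipoprotein lipase (r = 0.96), and Gm16861 (r = 0.96). Lpl was 8050 to 9918 CPM in title numbers 67 to 86 and 4828 to 6247 CPM in 26 to 32. Anxa6 was 514 to 658 CPM against 355 to 427 CPM, so both separated the title ranges. Gm16861 did not, at 13.4 to 16.5 CPM against 10.9 to 14.0 CPM. All these genes were picked for likeness to Ptn or Mdk over the same 8 libraries. Shared high and low libraries therefore follow from that choice and are no further evidence. Of the 9405 genes, 8 had r above 0.9 with Ptn and 45 with Mdk. How many would do so by chance over 8 libraries was not tested.

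**Figure D4:**
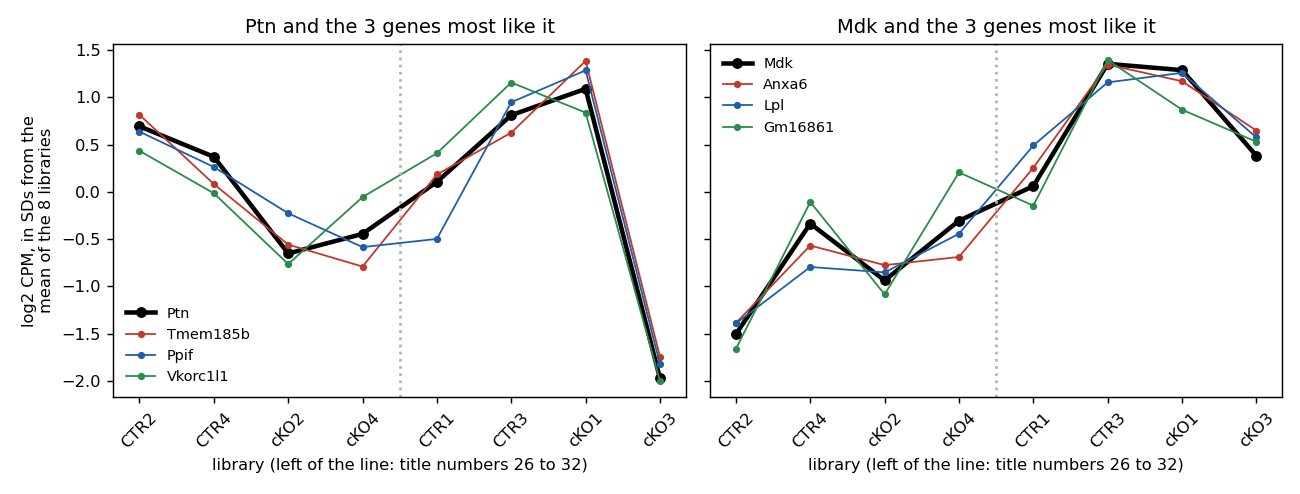
Log2 CPM of Ptn (left) and Mdk (right), each with the 3 genes most like it, as SDs from the gene's mean over the 8 libraries, where lines only join the values of 1 gene. Every gene in the Ptn panel is lowest in cKO replicate 3. In the Mdk panel the libraries of title numbers 67 to 86 lie to the right of the dotted line and higher for Mdk, Anxa6 and Lpl.

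Around the 5 genes, 100 genes in 7 lists covered other receptors, relatives, substrates, ligands and the enzymes that build the sugar chains to which pleiotrophin and midkine bind. Of these, 78 were tested and 8 were at 0 in every library. edgeR's quasi-likelihood test called 0 of them after adjustment over all genes. At an unadjusted p under 0.05, 2 were higher in cKO, beside 2.35% of all genes, and 1 was lower, beside 2.08% of all genes. The 4 cKO and 4 CTR libraries did not overlap for 4 of the 78, beside 2.67% of all genes. When 1 library at a time was omitted, each of the 3 genes had an unadjusted p under 0.05 in 3 of 8 fits. The median log2 fold change over the lists was -0.03, against -0.0013 over all genes tested.

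Among the 19 other receptors and binding partners, Alk and Ltk, receptor tyrosine kinases proposed to answer pleiotrophin and midkine, were at 0 counts in every library, which with a floor of 3 counts allows up to 0.0785 to 0.0966 CPM per library, for counting error only. Of the 11 tested, 5 had a positive and 6 a negative log2 fold change, with a median of -0.0079. The highest were Itgb1, the integrin β1 chain, at 310 ± 25.5 CPM per kilobase (SD, n = 8), Sdc1, a heparan sulfate proteoglycan of the cell surface, at 221 ± 20.01, and Sdc2, its relative, at 166.8 ± 28.2. All 3 stood above Mdk in mean level. The smallest unadjusted p was that of Ncl, nucleolin, at 0.202 by edgeR, with a CTR mean of 203.8 ± 18.9 CPM and a cKO mean of 184.8 ± 12.1 CPM (SD, n = 4 each).

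The 9 relatives and ligands of the receptor phosphatases had 7 tested members with a median log2 fold change of -0.04. Tnc, the matrix protein tenascin-C that binds PTPRZ1, reached 929.9 ± 179 CPM per kilobase, and Il34, a cytokine that also binds PTPRZ1, reached 234 ± 28.1 (SD, n = 8). The mean of Ptn on the same scale was 3.28 CPM per kilobase. Ptprd, a relative of Ptprs, was 26.4 ± 3.24 CPM per kilobase of exon union and 60.8 by its longest transcript, and Ptprf, the other relative, had the smallest unadjusted p in the list, 0.142 by edgeR, at 159.4 ± 13.0 CPM in CTR and 138.4 ± 22.8 CPM in cKO.

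PTPRZ1 substrates and adaptors were present in all 8 libraries for 8 of 9 genes, with a median log2 fold change of -0.06. Ctnnb1, β-catenin, was 46.6 ± 11.8 CPM per kilobase, Arhgap35, a GTPase-activating protein, 13.3 ± 1.499, and Afap1l2, an actin-associated adaptor, 11.2 ± 2.56 (SD, n = 8). Afap1l2 had the smallest unadjusted p, 0.0676 by edgeR, with a log2 fold change of -0.36 ± 0.17 (SE). Its CTR libraries held 54.0 to 92.4 CPM and its cKO libraries 46.8 to 65.5 CPM, so the groups overlapped, and without CTR replicate 3, the highest, the log2 fold change was -0.21. With the longest transcript as length, Afap1l2 was 17.3 CPM per kilobase and stood above Arhgap35 at 13.3.

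The list of LDL receptor family genes left out Lrp1, and Lrp2, Lrp6 and Lrp8 were placed among the other receptors. Of its 10 genes 8 were tested, with a median log2 fold change of -0.05. The highest of this list was Lrp10, at 56.6 ± 3.77 CPM per kilobase, below Lrp1 at 71.8. Next in the list were Lrp3 at 13.6 ± 0.808 and Lrp12 at 6.30 ± 1.69 (SD, n = 8). Lrp6, from the other list, was 6.41 CPM per kilobase. Lrp12 had the smallest unadjusted p, 0.149 by edgeR.

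Serpine2, a protease inhibitor cleared by LRP1, was 1017 ± 134 CPM per kilobase, Apoe, a lipoprotein ligand, was 904 ± 246, and Calr, a chaperone that signals through LRP1 at the cell surface, was 428 ± 52.4 (SD, n = 8). By longest transcript Serpine2 was 2483 and Apoe 1372 CPM per kilobase. Of 20 genes 16 were tested, 7 with a positive and 9 with a negative log2 fold change. Tfpi, an inhibitor of coagulation that LRP1 takes up, had the smallest unadjusted p at 0.0379 and an adjusted p of 0.999 by edgeR, with a log2 fold change of 0.44 ± 0.19 (SE). Its CTR libraries held 42.4, 61.7, 39.6 and 58.5 CPM and its cKO libraries 52.4, 67.3, 85.3 and 69.6 CPM, so that 3 cKO libraries lay above the CTR range. Within title numbers 26 to 32 the difference was 0.19 and within 67 to 86 it was 0.71. The lowest fold change of all lists was that of Mesd, a chaperone of LDL receptor family proteins, at -0.57 ± 0.38 (SE), which rested on CTR replicate 2 at 141.7 CPM where the other 7 libraries held 35.0 to 61.2 CPM, and it was 0.01 without that library.

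Proteoglycan core proteins were led by Bgn, biglycan, at 418 ± 34.4 CPM per kilobase, followed by Dcn, decorin, at 57.9 ± 11.5, and Agrn, agrin, at 13.6 ± 2.89 (SD, n = 8), and by longest transcript Bgn was 957. The neural core proteins Ncan and Bcan and the cartilage protein Acan were at 0 in every library. Bgn was 2598, 2639, 2780 and 2837 CPM in CTR and 2417, 2317, 2249 and 2571 CPM in cKO, so every cKO library lay below every CTR library, at a log2 fold change of -0.18 ± 0.09 (SE, unadjusted p 0.0753, adjusted p 0.999 by edgeR). Dcn was 371, 429, 309 and 406 CPM in CTR and 259, 325, 241 and 365 CPM in cKO, with overlapping groups, a log2 fold change of -0.34 ± 0.15 (SE), an unadjusted p of 0.0481 and an adjusted p of 0.999 by edgeR.

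The 24 genes of glycosaminoglycan synthesis, which build or modify the chondroitin and heparan chains, were tested for 23. The log2 fold change was positive for 6 and negative for 17, with a median of -0.10, and 1 of them, Xylt2, had an unadjusted p under 0.05. Xylt2, a xylosyltransferase that starts the chains, held 90.9, 88.2, 74.5 and 83.4 CPM in CTR and 105.1, 93.0, 99.4 and 98.5 CPM in cKO, with every cKO library above every CTR library and a log2 fold change of 0.24 ± 0.10 (SE, unadjusted p 0.0321, adjusted p 0.999 by edgeR). Chpf and Csgalnact1, named here after their values were seen, also did not overlap between the groups, beside 2.67% of all genes tested. The log2 fold change by edgeR was 0.36 ± 0.17 for Chpf and -0.33 ± 0.20 for Csgalnact1 (SE). Their unadjusted p was 0.0608 and 0.125 in that order, and their adjusted p 0.999, by the same test. Without cKO replicate 2 the log2 fold change of Chpf was 0.14. Chpf, of chondroitin polymerization, was 109.6 to 117.9 CPM in CTR and 118.0 to 204.3 CPM in cKO, so the groups only just parted and cKO replicate 2, at 204.3, stood apart from the other 3, while Csgalnact1, which adds the first galactosamine of chondroitin chains, was 9.88 to 11.9 CPM in CTR and 7.59 to 9.44 CPM in cKO. The highest of the list per kilobase were Dse, at 45.4 ± 4.31, Ext2, at 43.3 ± 2.20, and Chst15, at 41.2 ± 6.47 (SD, n = 8), and these act on dermatan, heparan and chondroitin chains. By longest transcript the order was Ext2 at 85.4, Chst15 at 55.2 and Dse at 51.5 CPM per kilobase.

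**Figure D5:**
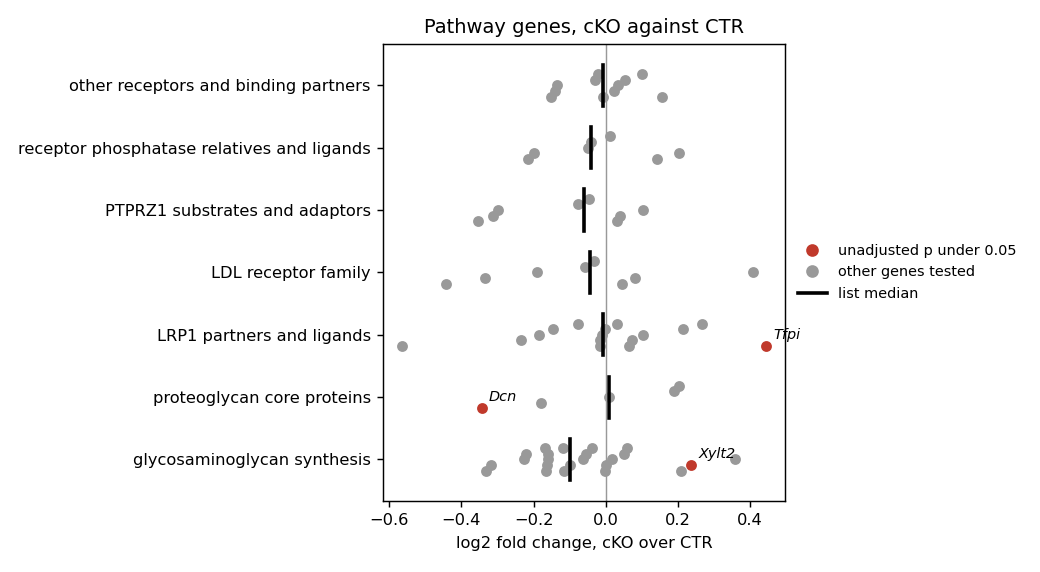
Log2 fold change of cKO over CTR for the 78 tested genes of the 7 lists, with red points for an unadjusted p under 0.05 and a bar at each list's median. Tfpi, at 0.44, Dcn, at -0.34, and Xylt2, at 0.24, are the red points, and the medians lie between -0.10 and 0.0081.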

How the data were processed

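The authors aligned reads to GRCm38 (mm10) with HISAT2 and counted them per gene with HTSeq, per the methods and the submitters' processing notes, and deposited raw counts without normalization. Whether counting used strand is not given in the sources used here. Of 52636 genes, 52403 were matched to symbols and exon lengths of GENCODE M21, a release other than the one the methods name, and 233 kept their identifiers. Of counts from 1 to 20, 58.6% were odd. Low counts that grow rarer from 1 upward also give more odd than even numbers. This share therefore cannot show how the deposited counts were made. Levels per kilobase depend on the gene lengths chosen.

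From the counts, genes with reads in all 8 libraries entered edgeR 4.0.16 (TMM, glmQLFit, glmQLFTest, Benjamini-Hochberg over all genes, threshold 0.05) in R 4.3.3, over 8 libraries without covariates. Intervals at 95% used the fit's SE and degrees of freedom. CPM were TMM-scaled, log2 CPM had a prior count of 2, and levels between genes were divided by the union of exons. Permutation tests (SciPy 1.17.1) enumerated all 70 assignments. Fits were tested on simulated data. In total 20 alternatives were run, including DESeq2 1.42.0 and limma-voom (limma 3.58.1).

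The 5 genes and the lists were chosen with earlier results of these data known. Named list genes are the 3 highest per kilobase and the one with the smallest unadjusted p in each list. The 3 most similar genes to Ptn and to Mdk were named by Pearson's r. Mesd, Chpf, Csgalnact1 and the title-number comparison of Mdk were added after values were seen. The labels call the samples biological replicates, and the title numbers have no stated meaning.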

Additional observations from a re-analysis of the deposited data

Results flagged for a closer look

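Among 92 groups of 4 libraries examined for the 5 genes, the named pathway genes, the genes most like Ptn and Mdk and the marker sums, 5 held a library far from the other 3, measured as its gap to the nearest library over the whole range (critical value 0.829). Chance flags about 1 in 20 groups, which is 4.6 of 92. Lrp12 in CTR had a ratio of 0.918, with 45.9 CPM in replicate 4 and 26.9 to 28.5 CPM in the others. Calr had a ratio of 0.894 in CTR, with 921 CPM in replicate 2 and 1305 to 1351 CPM in the others, and of 0.936 in cKO, with 1079.7 CPM in replicate 2 and 1291 to 1306 CPM in the others. Agrn in cKO had a ratio of 0.871, with 178.0 CPM in replicate 1 and 114.2 to 122.4 CPM in the others. Chpf in cKO had a ratio of 0.831, with 204.3 CPM in replicate 2 and 118.0 to 132.6 CPM in the others. None of the 5 ligands and receptors was among them.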

How the results depend on the processing

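Of the 5 genes and of the 78 tested pathway genes, 0 passed the adjusted threshold under each of the 20 alternatives. Genes called between cKO and CTR were 0 in the main setting, 0 to 0 with each library left out, 1 with no filter, with filterByExpr and with a mean of at least 1 CPM, 23 with DESeq2's Wald test, 22 with its likelihood ratio test and 47 with the title number range in that test, and the cause was not tested. Leaving out each library gave log2 fold changes of -1.35 to -0.29 for Ptn, -0.073 to 0.21 for Mdk, -0.69 to 0.22 for Ptprz1, -0.18 to -0.04 for Ptprs and -0.078 to 0.051 for Lrp1. The sign turned for Mdk without CTR replicate 2 (-0.068) and without cKO replicate 1 (-0.073), for Ptprz1 without CTR replicate 3 (0.22) and with limma-voom (0.0085), for Lrp1 without CTR replicate 2 (0.0019) and without cKO replicate 4 (0.051), and for Mesd without CTR replicate 2 (0.010, in a range of -0.79 to 0.010). Ptn was -0.95 with limma-voom. With the replicate number as a block, 0 genes were called, and log2 fold changes were -0.95 for Ptn, 0.06 for Mdk, -0.0081 for Ptprz1, -0.11 for Ptprs and -0.02 for Lrp1. Same-numbered libraries correlated at 0.06 to 0.18, not all above 0.1, so the numbers were not taken to pair them. Of 8 libraries, 7 correlated best with their own number. Each same-numbered pair also shared a title number range, and pairs across the ranges all correlated below 0. The best match was thus a choice within a range. The longest transcript in place of the exon union gave 149 CPM per kilobase for Mdk, 85.4 for Lrp1, 23.5 for Ptprs and 0.739 for Ptprz1, with the order of the 5 genes kept, and it moved Serpine2, Apoe, Bgn, Ptprd, Ext2 and Afap1l2 by over 1.5 times. The Mdk difference between title ranges was 0.36 to 0.51 with each library left out, and these alternatives were chosen after seeing the data. With 4 mice per group, the 95% intervals were wide, at -1.73 to 0.53 for Ptn and -1.63 to 0.92 for Ptprz1. Changes within these limits, including large decreases, are not excluded for either gene.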
